A study of Mus musculus with 6 samples.

Results

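The 10 genes described here hold the highest-scored peaks in the BAZ2A iCLIP list: Jarid2, ENSMUSG00000118642, Camk1d, Lars2, Fgfr2, Atf2, CT010467.1, Sltm, Il1rapl1 and Rmrp. They were selected on the score itself: each gene has a peak above 140, and every listed peak of each gene was then taken by its gene identifier. This gave 17 peaks under 11 gene identifiers, Rmrp having 2, out of 3127 peaks under 2288 identifiers. The scores are therefore a description of the selection, and no test was made on them. Their highest peaks did not fall into 1 class. CT010467.1 peaks were 18S ribosomal RNA (rRNA) sequence, and the Rmrp peaks lay in the Rmrp RNA itself. Most others were short stretches inside genes that also occur elsewhere in the genome.

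iCLIP recovers RNA fragments bound to a protein after ultraviolet light has joined them. The 3 crosslinked libraries came from mouse embryonic stem cells (ESCs) of the E14 line, grown in N2B27 medium with LIF and 2i, that received 400 mJ/cm2 of UV-C at 254 nm. The 3 background libraries came from the same cells without UV. In both groups the endogenous BAZ2A carried an F/H tag, and FLAG immunoprecipitates of isolated nuclei were used. The peak caller made 1 list from all libraries, so no value per library, no spread between replicates and no depth stands behind a score. The list cannot tell how much of a peak was present without UV.

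BAZ2A, also called TIP5, is a subunit of a chromatin remodelling complex and binds RNA through its TAM domain. rRNA is transcribed in the nucleolus as 1 long precursor that is cut into 18S, 5.8S and 28S RNA, and the parts removed include the internal transcribed spacers. Genomes also hold many retrotransposed or duplicated fragments of structural RNAs, often inside introns. A peak in an intron may thus hold sequence of another RNA as well as of the gene that hosts it, and the sequences are shown here beside the scores.

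The sequences of the 3 CT010467.1 peaks come first because they were identical to the 18S copy of the reference. They are given on the plus strand of chromosome 17 in the build mm10 (GRCm38), and capitals mark the mode, the single position that the list gives for each peak, with 2 bases on either side.
CT010467.1 peak 1: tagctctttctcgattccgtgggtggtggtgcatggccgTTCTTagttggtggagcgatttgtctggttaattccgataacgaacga
CT010467.1 peak 2: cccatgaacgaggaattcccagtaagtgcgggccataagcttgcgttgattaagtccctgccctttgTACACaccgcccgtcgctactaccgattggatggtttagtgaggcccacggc
CT010467.1 peak 3: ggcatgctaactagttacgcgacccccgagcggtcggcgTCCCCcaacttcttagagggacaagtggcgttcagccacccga
Peak 1 (chr17:39847659-39847745) scored 177. Peak 2 (chr17:39847986-39848104) scored 165. Peak 3 (chr17:39847752-39847833) scored 145 and was the lowest member above 140.

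All 3 matched the 18S copy that RefSeq names Rn18s-rs5 (chr17:39846354-39848202, plus strand, 1849 nt) at 100% identity over their whole length. They covered positions 1306 to 1392, 1633 to 1751 and 1399 to 1480, counted from the first base of that copy, which is 288 nt in its 3′ part. The 1305 nt before the first of them held no peak under this gene. GENCODE M21 places CT010467.1 on the minus strand, whereas the list puts the peaks on the plus strand, the strand that reads as 18S. Of the 3125 listed peaks whose gene is in that annotation, these 3 were the only ones not on the strand given for their gene.

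Peaks of other genes also matched 18S sequence, in whole or in part. Matches over at least 50% of a peak (blastn, e-value at most 1e-05) were found for 9 peaks in 6 genes, of which 6 peaks lay in introns of 5 other genes. Tor1aip2 had a peak with a score of 24.7 whose sequence matched positions 1257 to 1303 at 97.9% identity, directly before CT010467.1 peak 1. Gnb1l had one with a score of 24.4 on the strand opposite to 18S, over positions 1 to 37 at 100% identity. The other 4 scored 7.3 (Fam163b), 2.29 and 2.16 (Clasp2) and 1.4 (Ppm1e, only 17 nt matched). In all, 6 of the 9 peaks read as 18S and 3 as its complement.

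The Fam163b peak (chr2:27121278-27121314 is the shared part) is printed in the 18S direction beside CT010467.1 peak 3 above, with the base that differs in capitals.
Fam163b: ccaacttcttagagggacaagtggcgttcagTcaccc
The intron copy thus repeated 37 nt of the CT010467.1 peak with 1 difference. Its mode mapped to position 1464 of 18S and that of CT010467.1 peak 3 to position 1440, 24 nt apart, the latter outside the shared 37 nt.

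**Figure D1:**
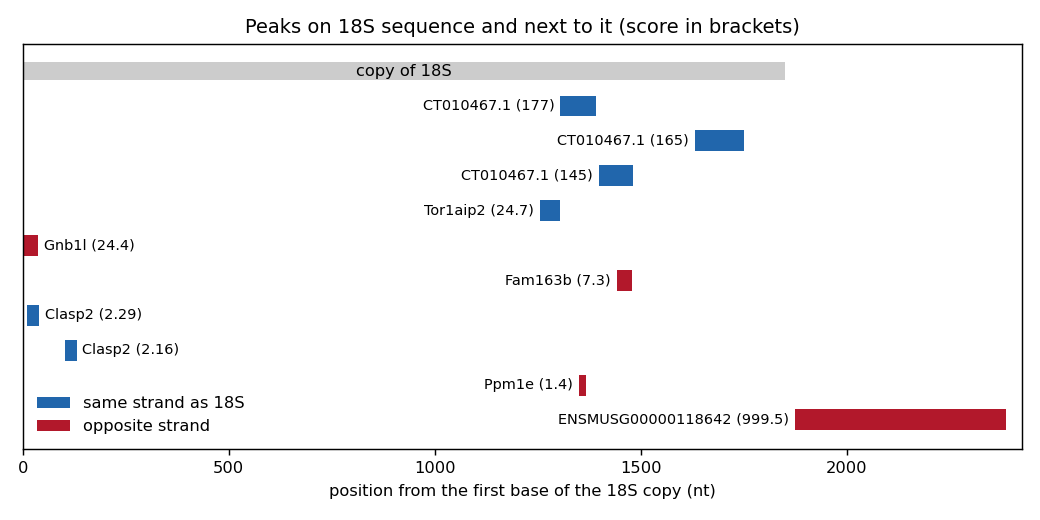
Peaks that match 18S, drawn by position from the first base of the 18S copy in nucleotides, with the ENSMUSG00000118642 peak next to it. Bars span the matched bases, blue on the strand of 18S and red on the opposite strand, and brackets give the score. The 3 CT010467.1 peaks sit between positions 1306 and 1751, and the red ENSMUSG00000118642 peak begins 26 nt after the end of the copy.

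ENSMUSG00000118642, a gene identifier absent from GENCODE M21, held the second score, 999.5. Its peak (chr17:39848229-39848739, minus strand) was 511 nt long, the longest of the list, in which the median length was 58 nt. It started 26 nt beyond the 3′ end of the 18S copy, where the first internal transcribed spacer follows 18S in the rRNA precursor, and lay on the strand opposite to 18S. It lay wholly inside an exon of AY036118, a long non-coding RNA of RefSeq on the minus strand (exon chr17:39848112-39848826). The 121 nt around its mode show the G and C content, 70.2% over the whole peak.
ENSMUSG00000118642: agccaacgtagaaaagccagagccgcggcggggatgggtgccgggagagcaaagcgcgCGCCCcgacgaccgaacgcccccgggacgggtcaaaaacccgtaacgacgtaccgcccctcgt
This stretch (chr17:39848487-39848607) is centred on the mode, 345 nt beyond the 18S end. The peak matched no structural RNA of the set, which held no spacer sequence. It had only 1 other match over at least 50% of its length, at 75.4% identity on chromosome 11, and no listed peak of another gene shared its sequence.

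Rmrp is the RNA of RNase MRP, an enzyme that cuts the rRNA precursor. Its 2 identifiers gave nearly the same peak. The peak under the long non-coding gene model (chr4:43492787-43492850, minus strand) scored 151, the one under the ribozyme model (chr4:43492789-43492850) scored 146, and both had the mode at 43492828. They are 1 site counted under 2 names.
Rmrp: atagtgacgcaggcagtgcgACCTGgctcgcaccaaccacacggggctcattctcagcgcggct
The site matched positions 209 to 271 of the 271 nt ribozyme, its 3′ end, at 100% identity, and had no other match in the genome. On the other strand of the same RNA lay a peak under Ccdc107 (chr4:43492901-43492936) with a score of 30.9. Of the 13 genes of RNase MRP and the related RNase P, 4 had a peak, among them Rmrp, which was selected for its peak. The RNase P RNA Rpph1 scored 48.7, the protein subunit Rpp30 scored 4.94 and Rpp25 scored 3.92. For scale, 4.12% of the 55536 annotated genes, expressed or not, had a peak.

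Jarid2, an accessory subunit of the Polycomb repressive complex 2 (PRC2), held the highest score, 1000. The peak (chr13:44869597-44869679, plus strand, 83 nt) lay in an intron. Peaks in introns of 5 other genes shared its sequence, and 4 of them are printed below it in the Jarid2 direction with differing bases in capitals. In the Jarid2 line, capitals mark the mode.
Jarid2: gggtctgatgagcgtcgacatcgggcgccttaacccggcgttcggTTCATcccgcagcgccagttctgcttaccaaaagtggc
Gm19951: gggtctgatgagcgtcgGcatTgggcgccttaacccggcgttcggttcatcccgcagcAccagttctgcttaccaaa
Kpna1: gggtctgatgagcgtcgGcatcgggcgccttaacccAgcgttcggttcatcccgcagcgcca
Tmtc2: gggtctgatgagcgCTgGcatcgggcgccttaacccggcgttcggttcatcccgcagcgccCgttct
D130009I18Rik: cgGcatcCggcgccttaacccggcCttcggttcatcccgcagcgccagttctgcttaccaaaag
The Gm19951 stretch is chr12:99645590-99645666, the Kpna1 stretch chr16:35981587-35981648, the Tmtc2 stretch chr10:105238470-105238536 and the D130009I18Rik stretch chr14:104715775-104715838.

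The Gm19951 peak scored 107, just outside the limit of 140. It was identical to Jarid2 at 96.1% of 77 aligned bases but lay on the opposite strand. Kpna1, an importin subunit, had a peak of the stretch with a score of 89, also on the opposite strand. At the same place in chromosome 16 the minus-strand gene Gm15564 had a peak with a score of 46.2, so both strands of 1 copy carried a peak. Tmtc2 (63.3) and D130009I18Rik (4.79) had the stretch on the Jarid2 strand. In each of these genes the peak was on the strand of its host gene, and the strand of the shared sequence followed from that.

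The genome held 16 further sites that matched at least 50% of the Jarid2 peak. Of these, 8 lay in annotated genes and 4 of the 8 carried a listed peak. The other 8 lay outside annotated genes and carried none, as the list holds peaks only under a gene identifier. The stretch shared with the best copy, that in Gm19951, was 459 nt long at 94.0% identity and reached 12 nt upstream and 364 nt downstream of the peak. The peak matched no structural RNA of the set, which held 18S and only a part of 28S, so whether it is sequence of another part of rRNA was not tested. The same holds for the Atf2 and Il1rapl1 peaks. Jarid2 had no other peak. Of the 12 PRC2 genes, 6 had a peak, among them Jarid2, which was selected for its peak. Over all annotated genes, expressed or not, the share was 4.12%. After Jarid2 the highest score was 24.6 in the coding sequence of Epop. The others were Suz12 (5.52 and 3.94), Mtf2 (5.33), Rbbp4 (5.15) and Aebp2 (2.84).

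Atf2, a leucine zipper transcription factor, gave a like picture at a lower score, 190. Its peak (chr2:73867938-73868033, minus strand) lay in an intron and shared sequence with peaks in introns of 5 other genes, 3 of which are shown as above.
Atf2: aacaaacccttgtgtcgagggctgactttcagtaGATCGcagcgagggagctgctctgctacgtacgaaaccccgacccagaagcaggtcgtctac
Itga9: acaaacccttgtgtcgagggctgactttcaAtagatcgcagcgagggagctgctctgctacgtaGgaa
Peak1: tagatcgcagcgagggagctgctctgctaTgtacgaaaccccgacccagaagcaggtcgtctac
Zfp791: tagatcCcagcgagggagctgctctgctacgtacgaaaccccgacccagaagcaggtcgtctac
The stretches are chr9:118674953-118675020 for Itga9, chr9:56223581-56223644 for Peak1 and chr8:85111893-85111956 for Zfp791. The Itga9 peak, on the Atf2 strand, scored 97.4. The Peak1 peak scored 54.8 and the Zfp791 peak 44.2, both on the opposite strand. Gm5577 (15) and Luzp1 (4.31) had it on the Atf2 strand. Of 15 further sites in the genome, 10 lay in genes, and 5 of those carried a peak. The part shared with the Itga9 copy was 130 nt long at 94.6% identity, so it ended 10 nt upstream and 24 nt downstream of the peak.

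**Figure D2:**
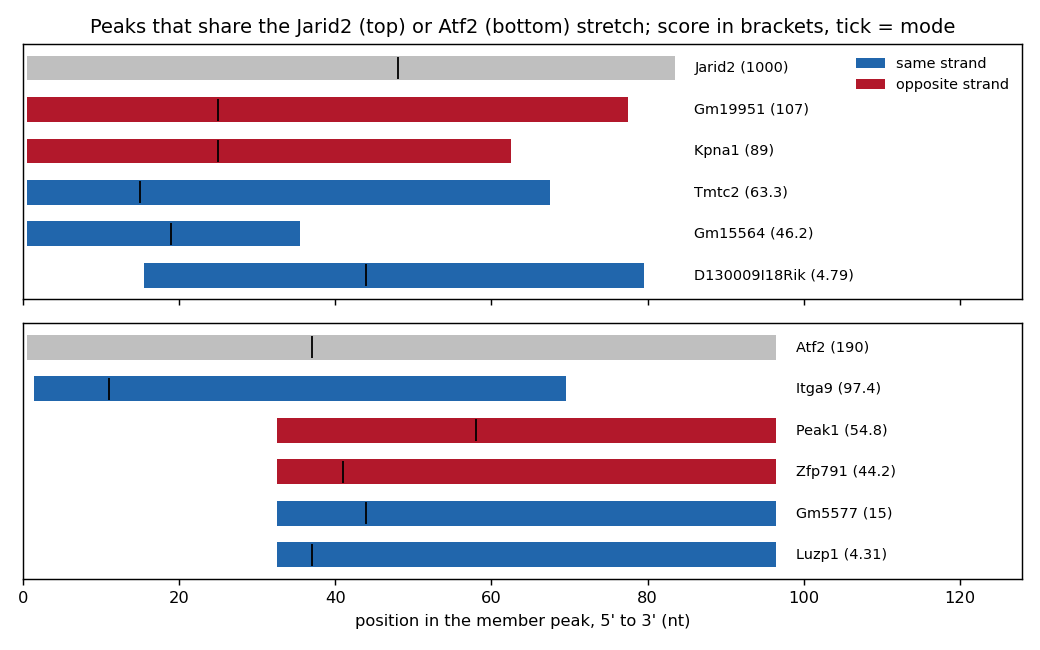
Listed peaks that share the Jarid2 stretch (top) or the Atf2 stretch (bottom), by position in the Jarid2 or Atf2 peak in nucleotides. Grey is the member peak, blue a peak on the same strand and red one on the opposite strand, black ticks mark the modes, and brackets give the scores. Scores ran from 4.79 to 1000 in the Jarid2 group and from 4.31 to 190 in the Atf2 group. The Luzp1 mode falls on that of Atf2, and the Gm19951 and Kpna1 modes fall on 1 position, 23 nt from that of Jarid2.

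The modes were compared over the 13 pairs of a member peak and a peak elsewhere with its sequence, the fully repeat-masked members left out. In 10 pairs both modes lay in the aligned stretch. They were 0 to 33 nt apart, with a median of 14 nt, and in 4 pairs at most 5 nt apart. In the pairs of Jarid2 with Gm15564, Fgfr2 with Gphn and CT010467.1 peak 3 with Fam163b, the mode of the member lay outside the shared stretch. In the Jarid2 stretch the Gm19951 and Kpna1 modes fell on the same base, 23 nt from that of Jarid2. In the Atf2 stretch the Luzp1 mode fell on the Atf2 mode. Of the 13 peaks, 7 were opposite to the member and 6 on its strand.

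Camk1d, a calcium/calmodulin-dependent kinase, held the third score, 757, which was 2.84 times the next score, that of Lars2. Its peak (chr2:5379269-5379365, minus strand) lay in an intron. It is shown with a copy on chromosome 17 (chr17:22877385-22877477, plus strand), in which capitals mark the bases that differ.
Camk1d: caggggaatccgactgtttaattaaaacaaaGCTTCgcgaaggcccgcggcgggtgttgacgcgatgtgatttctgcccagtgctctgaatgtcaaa
chromosome 17 copy: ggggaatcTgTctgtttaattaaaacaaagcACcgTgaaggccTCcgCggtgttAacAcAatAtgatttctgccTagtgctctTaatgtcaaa
The genome held 45 other sites that matched at least 50% of this peak, the most of any member that was not repeat-masked. Of these, 8 lay in genes and none carried a listed peak. Only 1 of the 45 reached 90% identity over at least 80% of the peak. Most of the 45 lay in 1 region of chromosome X (24121572 to 35558362). Each of those matched 63 nt, 64.9% of the peak, at 81.0% to 87.3% identity.

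Fgfr2 peak 1 and Lars2 peak 1 were linked to Camk1d through that copy. No base of Lars2 peak 2 was aligned there. Lars2 encodes the mitochondrial leucyl-tRNA synthetase, and Fgfr2 a receptor for fibroblast growth factors. The only 28S sequence in the reference, a part of 420 nt named Rn28s1, matched 15 sites in the main assembly and no member peak. One of these sites, 49 nt at 89.8% identity (chr17:22876485-22876533, plus strand), was followed within 2 kb by sequence of all 3 loci. Camk1d matched 331 nt there at 83.8% identity, Fgfr2 248 nt at 75.9% and the Lars2 locus 233 nt at 84.0%. The Camk1d peak and Lars2 peak 1 were on the strand of the 28S part and Fgfr2 peak 1 on the opposite strand. A site on chromosome 19 also held Camk1d sequence and another section of the 28S part on 1 strand, within 346 nt. Full-length 28S was not analysed here, so whether the peaks themselves are 28S sequence was not tested.

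**Figure D3:**
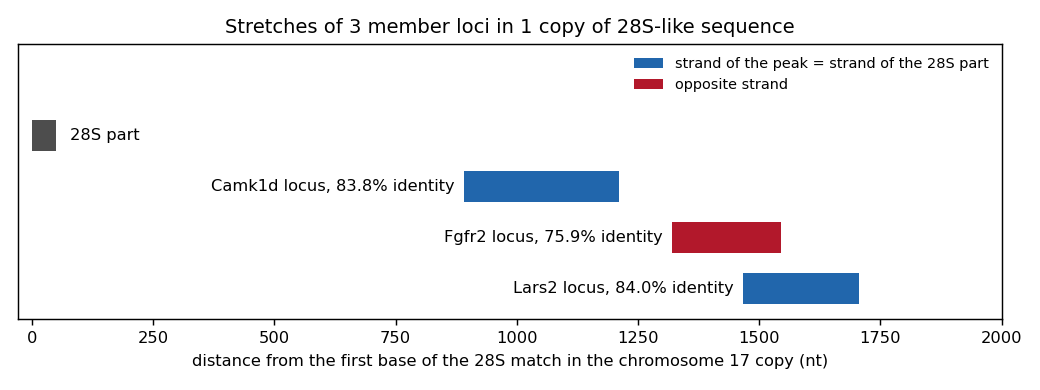
Place of the Camk1d, Fgfr2 and Lars2 loci in the chromosome 17 sequence that begins with a match to the 28S part, as distance from that match in nucleotides. Bars span the aligned stretches (blue, peak on the strand of the 28S part, and red, peak on the opposite strand) with their identity. The Camk1d stretch lies nearest to the 28S match, the Fgfr2 and Lars2 stretches overlap in part, and all 3 lie within 2 kb of it.

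Lars2 had both its peaks in the 3′ untranslated region, where 30 nt around each mode are shown.
Lars2 peak 1: ggccaagcgttcaTAGCGacgtcgcttttt
Lars2 peak 2: gggattagaccgtCGTGAgacaggttagtt
Peak 1 (chr9:123461953-123462038, plus strand) scored 266. Peak 2 (chr9:123462084-123462186) scored 106, the third score at or under 140. Peak 1 had 11 other sites in the genome and peak 2 had 5. At 3 of the sites of peak 1, on chromosomes 1, 11 and 19, sequence of peak 2 lay beside it in the same order and strand. On chromosome 1 the match covered 103 nt of peak 2. On chromosomes 11 and 19 it covered only 38 and 43 nt, and these short matches are not among the 5 sites. One site of peak 1 lay within Jarid2 (chr13:44749610-44749694), on its opposite strand and without a peak. Listed peaks shared 19 nt with a site of peak 1 in Wdr92 (score 10.4) and in 1600010M07Rik (1.72). Peak 2 shared 68 aligned bases at 98.5% identity with a second peak in the Kpna1 intron, of score 93, on the opposite strand, with the modes 1 nt apart. That Kpna1 peak (chr16:35981693-35981764) lay beside the Kpna1 peak with the Jarid2 stretch.

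Fgfr2 had 4 peaks, of which only the first was above 140. It scored 266 (chr7:130834421-130834636, minus strand, 216 nt). Capitals mark the part shared with a peak in an intron of Gphn.
Fgfr2: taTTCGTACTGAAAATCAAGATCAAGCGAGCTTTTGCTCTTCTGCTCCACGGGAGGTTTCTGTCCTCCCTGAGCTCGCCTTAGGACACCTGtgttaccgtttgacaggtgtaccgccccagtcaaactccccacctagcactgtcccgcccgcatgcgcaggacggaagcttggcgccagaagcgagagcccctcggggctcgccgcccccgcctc
The Gphn peak (chr12:78350927-78351019) scored 59, lay on the opposite strand and was 98.9% identical over 89 aligned bases. Beside it in Gphn lay a copy of Lars2 peak 1 (98.8% identity over 83 nt), without a peak. This copy and the Fgfr2 match together spanned 299 nt. In GENCODE M21, where an Fgfr2 transcript reaches far upstream, the gene spans 2960900 nt and all 4 peaks lay in its introns. In RefSeq the gene spans 104358 nt and none of the 4 lay within it, peak 1 being 568 kb beyond its 5′ end.

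The other 3 Fgfr2 peaks scored 17.1, 9.54 and 4.59, at ranks 190, 460 and 1424 of 3127. Only the last was near the list median of 4.28. Peak 2 had 2.47% GC and was fully repeat-masked, as was peak 3. Peak 4 (chr7:130898204-130898246) was also listed on the plus strand under Plekha1, with a score of 4.77. Fgfr1, the only relative of Fgfr2 with a peak, scored 2.82.

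Sltm, a protein of the SAFB family, had a peak of score 177 in an intron (chr9:70554628-70554721, plus strand). Every base of it was repeat-masked, and capitals mark the part aligned to Gm25574, an annotated miscellaneous RNA.
Sltm: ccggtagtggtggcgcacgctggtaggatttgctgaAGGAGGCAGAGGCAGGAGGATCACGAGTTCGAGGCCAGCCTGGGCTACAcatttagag
The aligned part was 49 nt (52.1% of the peak) at 88.0% identity. The 7SL RNA genes Rn7s1 and Rn7s2 gave no match at the e-value used. The sequence recurred in 52 listed peaks outside the 10 genes, 23 on the same strand and 29 on the opposite strand. The highest of these was Tmem245, whose score of 126 was the first outside the limit of 140. The low-GC Fgfr2 peak 2 recurred likewise, in 56. Fgfr2 peak 3 shared sequence with 24 listed peaks, each of which also shared the Sltm sequence.

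Il1rapl1, a synaptic member of the interleukin-1 receptor family, had a peak of score 158 in an intron (chrX:87238360-87238422, minus strand).
Il1rapl1: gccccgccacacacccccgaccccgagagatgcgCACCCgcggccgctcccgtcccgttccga
It had the highest GC content of the members, 77.8%, which was 38.0 percentage points above its flanks of 200 nt on either side. Only 1 other site in the genome matched it, at 89.8% identity over 59 nt, and no other listed peak shared its sequence. Il1rapl2, its relative, had an intron peak of score 5.93. That peak was fully repeat-masked and shared the low-GC sequence of Fgfr2 peak 2 (94.8% identity over 58 aligned bases), not that of Il1rapl1.

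**Figure D4:**
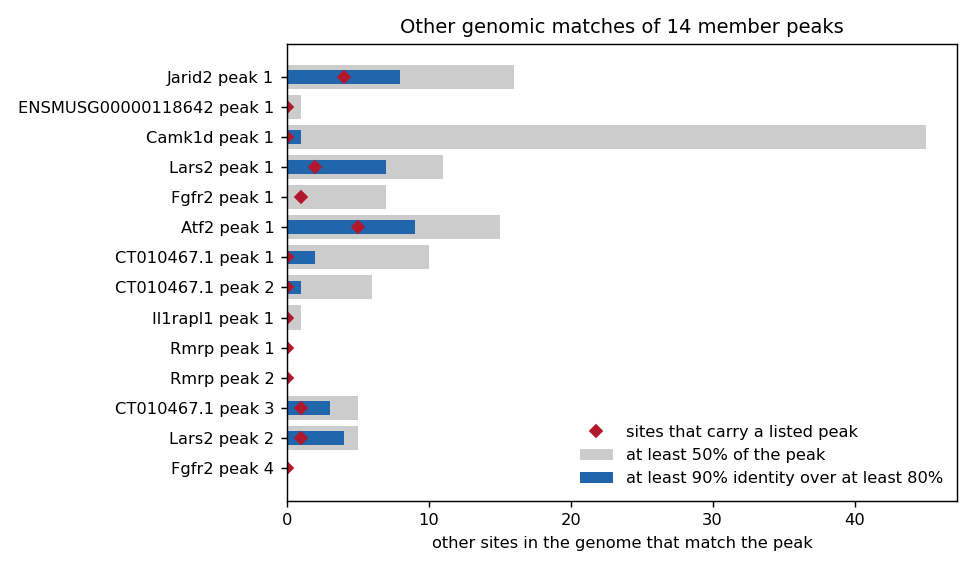
Number of other genomic sites that match each of the 14 member peaks that are not fully repeat-masked. Grey bars count sites over at least 50% of the peak, blue bars those with at least 90% identity over at least 80% of it, and red diamonds the sites of the grey bars that carry a listed peak. Camk1d has 45 sites, most of them on chromosome X, and none with a peak, while Jarid2 has 16 with 4 and Atf2 15 with 5.

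Counted over all members, 6 of the 17 peaks matched a structural RNA over at least 50% of their length, against 341 of all 3127 peaks (10.9%). These 6 were the 3 CT010467.1 peaks, the 2 Rmrp peaks and Sltm, so the highest peaks of 3 of the 10 genes did. Without matches of an RNA gene to itself, only Sltm remained, against 327 peaks of the list. The Sltm match covered 52.1% of its peak at 88.0% identity, so it only just passed the limit of 50%. The set lacked parts of the rRNA precursor, among them the spacers, so peaks with sequence of those parts could not be counted. Whether other member peaks hold such sequence was not tested. Another copy in the genome, of at least 90% identity over at least 80% of the peak, was found for 11 of the 17, against 629 of the list (20.1%). Those without one were ENSMUSG00000118642, Il1rapl1, the 2 Rmrp peaks and Fgfr2 peaks 1 and 4. Introns of GENCODE M21 held 9 of the 17, against 1540 of the list (49.2%). The 9 include all the Fgfr2 peaks, which lay outside that gene in RefSeq. The median GC content of a member peak was 7.2 percentage points above its flanks, and that of a listed peak 4.5. These are counts on a selected list and carry no test. Member peaks were also longer (median 86 nt, lowest 38 nt) than listed peaks (median 58 nt, lowest 4 nt). The shortest listed peaks cannot give a match at the word size of 16 and the e-value used. The counts were not adjusted for length.

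The 17 peaks made up 0.544% of the list and held 18.9% of its summed score of 25084, and the first 3 held 11%. The lowest member above 140 scored 145, and the first peaks outside were Tmem245 (126), Gm19951 (107) and Lars2 peak 2 (106). Of these, Gm19951 carried the Jarid2 stretch and Tmem245 the Sltm repeat. Of a list of 14 structural RNA genes, 12 were in the annotation and 6 had a peak, among them the selected Rmrp. The share over all annotated genes, expressed or not, was 4.12%. After Rmrp came Rn7sk, a regulator of transcription elongation, at 93.9, and the box C/D RNA Snord118 at 75.7.

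**Figure D5:**
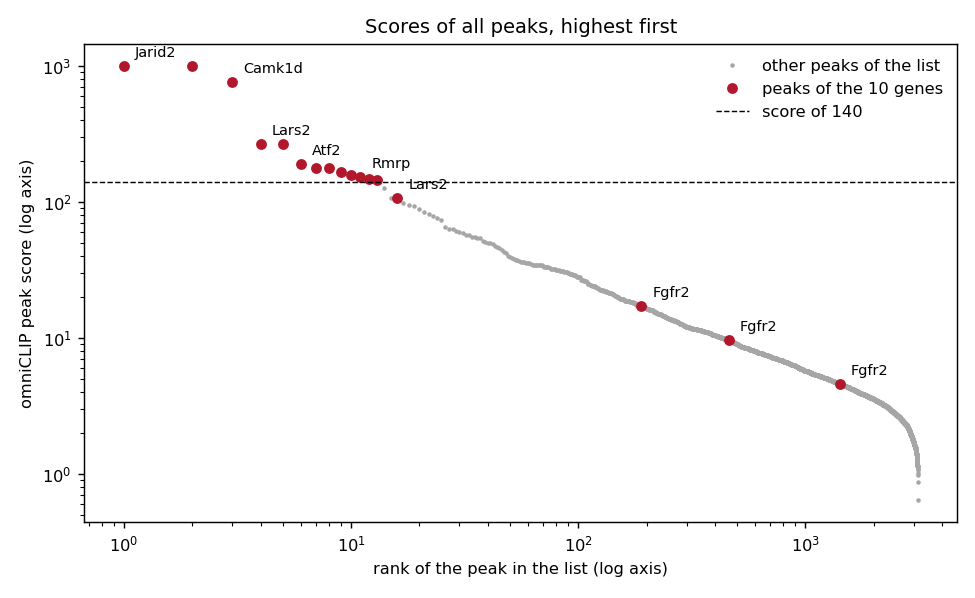
Score of each of the 3127 peaks against its rank, both on log axes, with the 17 peaks of the 10 genes in red and the limit of 140 dashed. The first 3 peaks stand at 757 or more, the other 10 above the limit between 145 and 266, and 4 peaks of the same genes lie below it.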

How the data were processed

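The authors' peak list was the only file. Per the labels and the study's methods, reads were trimmed with Flexbar, aligned with STAR 2.6 to mm10, deduplicated by molecular identifier with UMI-tools 0.5.1 and called with omniCLIP on Ensembl annotation, with the background libraries as the control. Crosslinked and background libraries of a pair were combined at equal volumes for sequencing. By the methods, the background libraries had shown no product on a gel, so these need not be equal amounts. The score deposited by the authors has no stated unit, and the other deposited columns are positions. How reads with several genomic matches were placed is not given in the sources used here.

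Peak sequences were read from GRCm38.p6, primary assembly only. Regions were classed at the peak midpoint with GENCODE M21. Peaks were compared with blastn 2.17.0 (e-value at most 1e-05, no masking) with 3911 structural RNAs (CT010467.1, annotated as the complement of 18S, was left out), with each other and with the genome (word size 16 for the count over all peaks). The matching was tested on simulated data. Named were all members, the 3 peaks next below 140, and other peaks that share at least 50% of either sequence. Members and gene lists were chosen with earlier results of these data known. Alternatives were other coverage, identity, strand, position and flank settings.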

Additional observations from a re-analysis of the deposited data

How the results depend on the processing

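Of the alternatives tried, the counts of structural matches ran from 5 to 7 of 17 peaks and from 2 to 3 of 10 genes. The count in introns was 9 under all 3 classings, each of which used GENCODE M21. Leaving out matches of an RNA gene to itself, an alternative chosen after seeing the data, left 1 peak. Asking for 95% identity lowered the peaks with another copy from 11 to 7, and 80% identity over 50% of the peak gave 12. The share of the summed score was 19.2% over distinct intervals and 18.3% for peaks above 140 alone. The GC difference was 10.6 points with flanks of 100 nt and 8.85 points with flanks of 500 nt. No paired analysis was possible because the list pools all libraries, and for the same reason leaving out a replicate was not run. Depth behind a score is unknown.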
